A study of Mus musculus with 11 samples.

Results

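Transcripts of mitochondrial DNA were measured by RNA sequencing in 11 libraries of mouse primary myoblasts, the proliferating precursors of muscle fibres. The rows described were chosen by name. They are every row whose Ensembl identifier maps to a symbol that starts with mt-, and Lars2, a nuclear gene whose row may collect reads of the large mitochondrial rRNA. This gave 16 of 22104 rows: 2 mitochondrial rRNAs, 13 mitochondrial mRNAs and Lars2. Of the 22 annotated mitochondrial tRNA genes, 0 had a row among those analysed here.

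Cells were grown from tibialis anterior muscle of Bmal1-/- or wild-type C57BL/6 mice, young adults of about 8 weeks, and were cultured with serum and basic fibroblast growth factor. They were kept for 6 h at 1% O2 (hypoxia) or 21% O2 (normoxia), which gave 4 groups: Bmal1-/- hypoxia (n = 3), Bmal1-/- normoxia (n = 3), wild-type hypoxia (n = 3) and wild-type normoxia (n = 2). Bmal1 is a transcription factor of the circadian clock, and Bmal1-/- is written as a deletion with no driver or cell type named. Whether the libraries within a group are separate animals or cultures is not labelled, so p-values measure the spread between libraries, which may be technical. Replicate numbers used here are the listing order within a group, not labels of the study, and do not pair libraries between groups.

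Mitochondrial DNA is a small circle that is copied into RNA from both strands as long precursors. These are cut, largely at the tRNAs between the genes, into rRNAs, mRNAs and tRNAs. The rRNAs build the mitochondrial ribosome, and the mRNAs encode core subunits of respiratory complexes I, III and IV and of ATP synthase. Copies of mitochondrial sequence inserted into nuclear chromosomes can share reads with the genes they derive from.

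Libraries held 23027613 to 33613328 reads in hypoxia and 18707697 to 21451760 reads in normoxia, so every hypoxia library was deeper. Values are normalized read counts, reads divided by 1 size factor per library. Arntl, the gene of Bmal1, read 98.8 to 134 in Bmal1-/- libraries and 264 to 328 in wild-type libraries. The hypoxia marker Bnip3 read 7571 to 9814 in Bmal1-/- hypoxia against 1330 to 1524 in Bmal1-/- normoxia, and 6960 to 9885 in wild-type hypoxia against 1081 to 1174 in wild-type normoxia. The sum of 8 myoblast markers, among them Myod1 and Des, was 47980 to 57267 in all libraries. Endothelial markers summed to 20.4 to 61.4 and leukocyte markers to 4.77 to 34.7. In bulk RNA, fewer cells of a type and less RNA per cell cannot be told apart.

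Mitochondrial rRNA was the largest class of the 3 in every library. The 2 rRNA rows held 21.8% ± 0.455 of reads in Bmal1-/- hypoxia, 22.1% ± 0.739 in Bmal1-/- normoxia, 21.4% ± 0.234 in wild-type hypoxia (SD, n = 3 each) and 20.6% ± 0.252 in wild-type normoxia (SD, n = 2). Nearly all of it was mt-Rnr2, the 16S rRNA of the large ribosomal subunit, which exceeded mt-Rnr1, the 12S rRNA of the small subunit, by a factor of 18.4 to 24.1 in read count. The 13 mRNA rows together held 1.55% ± 0.0581 of reads in Bmal1-/- hypoxia, 1.76% ± 0.0566 in Bmal1-/- normoxia, 1.51% ± 0.0799 in wild-type hypoxia (SD, n = 3 each) and 1.74% ± 0.0482 in wild-type normoxia (SD, n = 2). The mRNA share was lower in all hypoxia libraries than in any normoxia library, and the rRNA share was not. As ratios of geometric means, the mRNA share in hypoxia was 0.876 of that in normoxia in Bmal1-/- cells and 0.868 in wild-type cells. The same ratio for rRNA was 0.986 in Bmal1-/- cells and 1.04 in wild-type cells. These sums over rows are descriptions with no test.

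**Figure D1:**
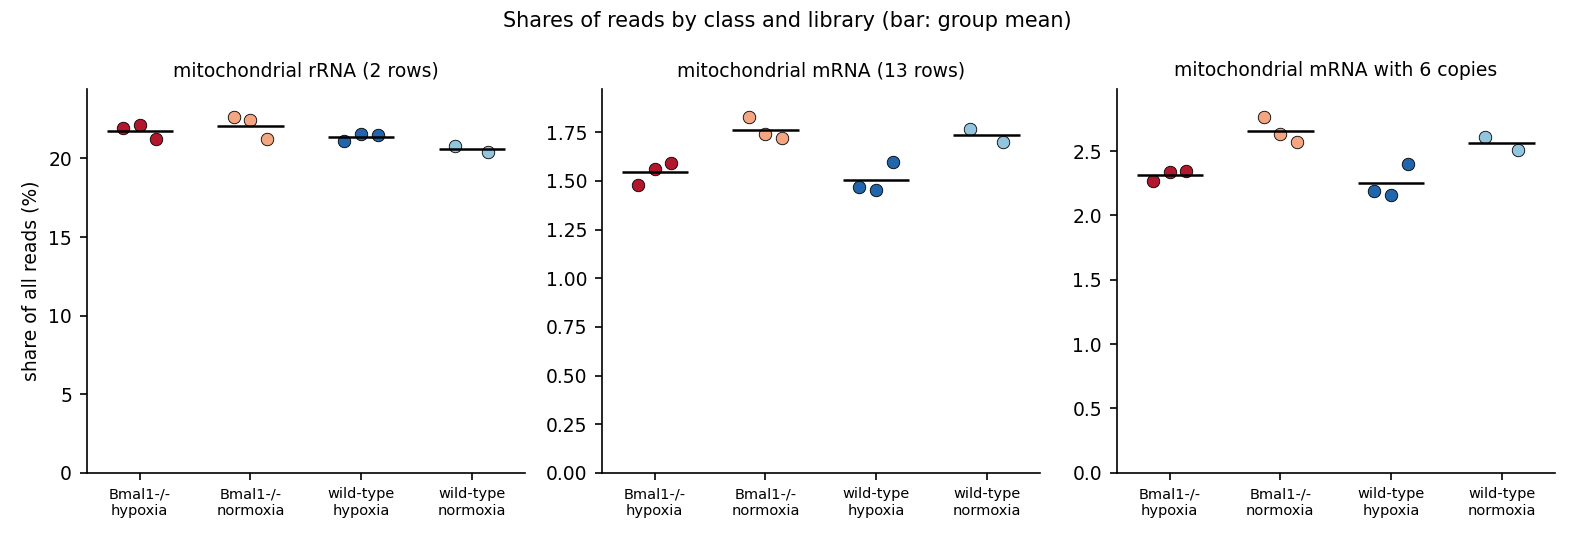
Share of all reads (%, from 0) in the 2 mitochondrial rRNA rows, the 13 mitochondrial mRNA rows, and the mRNA rows together with 6 near-identical chromosome 1 copies. Points are libraries and bars are group means. The mRNA share was 1.45 to 1.60% in hypoxia libraries and 1.70 to 1.83% in normoxia libraries, and rRNA shares overlapped.

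Levels between genes were compared per kilobase, as the mean normalized count over 11 libraries divided by gene length. The order began with mt-Rnr2 at 3033150 and mt-Rnr1 at 238985. Among the mRNA rows, mt-Co1, the catalytic subunit of complex IV, was highest at 177718 per kilobase. It was followed by the complex I subunit mt-Nd1 at 40156, the complex III subunit mt-Cytb at 21921 and the ATP synthase subunit mt-Atp8 at 19319. At the low end stood mt-Nd6, the mRNA of the other strand, at 1826, the complex IV subunit mt-Co2 at 1357 and the complex I subunit mt-Nd4l at 900.4. The 3 subunits of complex IV thus lay far apart by their rows, with mt-Co3 at 4416. Rows with a nuclear copy set several of these values.

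On chromosome 1, 7 annotated pseudogenes lie in a row on the minus strand (GRCm38, chr1:24611535-24616197), each at least 99% identical over at least 90% of its length to a mitochondrial gene. They match part of mt-Co1, all or nearly all of mt-Co2, mt-Atp6, mt-Co3, mt-Nd3 and mt-Nd4l, and the first 876 bases of mt-Nd4. The copies Gm28661 of mt-Co2, Gm10925 of mt-Atp6, Gm28437 of mt-Co3 and Gm10222 of mt-Nd4l were 100% identical to them over the whole copy. The copy Gm28438 of mt-Nd3 differed by 1 base in 345, the substitution T3C, counted from 1 at the first base of mt-Nd3. The starts of both are shown with the base that differs in capitals, from chrM:9459-9481 on the plus strand and chr1:24613097-24613119 on the minus strand (GENCODE M21 transcripts of GRCm38).
mt-Nd3: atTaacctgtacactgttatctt
Gm28438: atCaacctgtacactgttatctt
A read that does not span that base holds no information on which of the pair it came from.

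The genes can be sorted by how much of them a short read could place among annotated transcripts. Of all stretches of 50 bases, 100% in mt-Co2, 99.9% in mt-Co3, 99.5% in mt-Atp6, 98.8% in mt-Nd4l and 98.0% in mt-Nd3 also occur in the transcript of another gene. The share was 62.2% in mt-Nd4 and 51.1% in mt-Co1, and 1.04 to 8.19% in mt-Rnr2, mt-Nd5 and mt-Nd2. It was 0 in mt-Rnr1, mt-Nd1, mt-Atp8, mt-Nd6 and mt-Cytb. Sequence outside annotated transcripts was not searched, so a share of 0 does not show that every read could be placed. The read length and the handling of reads with several matches are not given in the sources used here.

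The rows of the copies held most reads of some genes. Of the summed value of gene and copy, Gm28661 had 98.2 to 99.3% for mt-Co2, Gm28437 had 93.3 to 98.7% for mt-Co3 and Gm10925 had 83.1 to 93.2% for mt-Atp6. The split varied widely for the lower pairs, with 21.0 to 61.8% on Gm28438 for mt-Nd3 and 38.7 to 88.8% on Gm10222 for mt-Nd4l. For mt-Co1, Gm29216 had 1.82 to 3.30%. The seventh copy, Gm28439 of mt-Nd4, had no row among those analysed here. Whether reads on a copy's row came from the mitochondrial gene or from chromosome 1 cannot be told apart in these values. Between Gm10925 and Gm28661 lie 233 bases with no annotated gene, as many as mitochondrial DNA has between the matching genes, where most of mt-Atp8 lies. The sequence of that stretch was not analysed here.

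**Figure D2:**
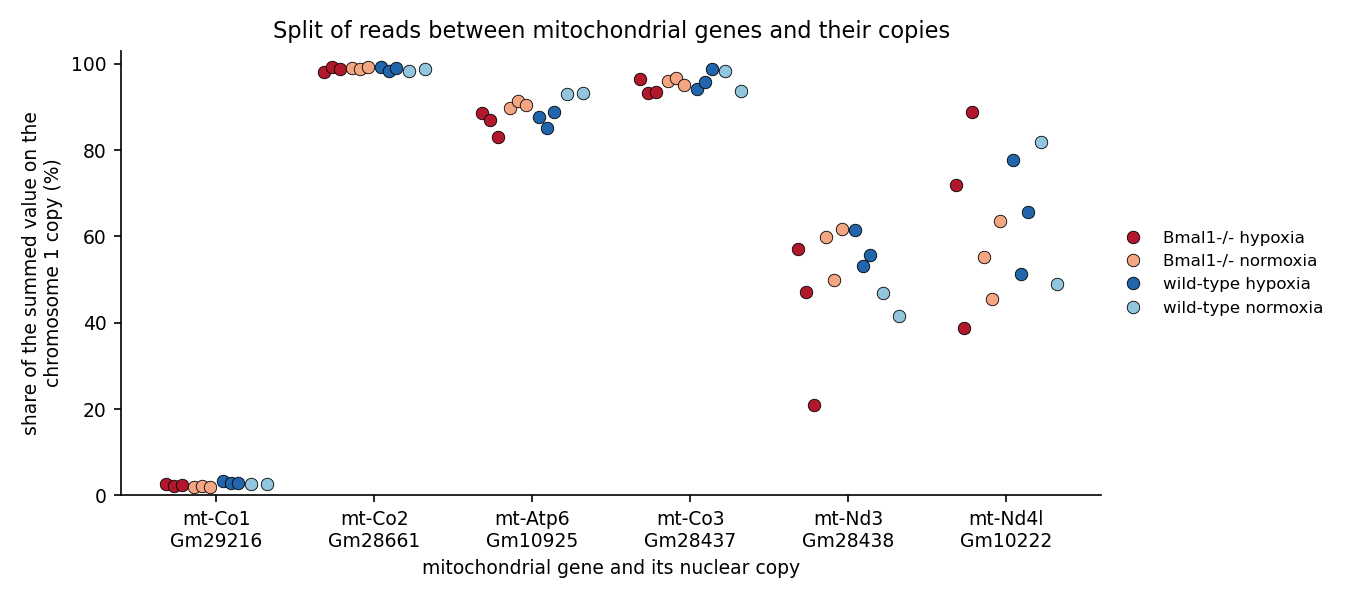
Share (%) of the summed normalized count of a mitochondrial gene and its chromosome 1 copy that stands on the copy's row, per library. Each point is a library, coloured by group. The share is above 83% for mt-Co2, mt-Atp6 and mt-Co3 in all 11 libraries and scatters between 21.0 and 88.8% for mt-Nd3 and mt-Nd4l.

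Adding the copies changed both the levels and their spread. Per kilobase of the gene, mt-Co2 with its copy reached 115084 and mt-Co3 with its copy 100883, beside mt-Co1 with its copy at 182192. The summed mt-Atp6 stood at 39888, mt-Nd3 at 17480 and mt-Nd4l at 2399. The coefficient of variation of mt-Co3 in wild-type hypoxia was 4.39% with the copy and 59.4% for the row alone. For mt-Nd4l in Bmal1-/- hypoxia it was 4.17% with the copy and 77.4% alone. With the copies included, mitochondrial mRNA held 2.32% ± 0.0466 of reads in Bmal1-/- hypoxia, 2.66% ± 0.0983 in Bmal1-/- normoxia, 2.25% ± 0.129 in wild-type hypoxia (SD, n = 3 each) and 2.56% ± 0.0728 in wild-type normoxia (SD, n = 2). All hypoxia libraries again lay below all normoxia libraries. The summed values were added after the data were seen.

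In Bmal1-/- cells, 4 of the 13 mitochondrial mRNAs fell in hypoxia and 0 rose, and neither rRNA passed the test. The mRNAs that fell were mt-Nd1, mt-Nd2, mt-Atp8 and mt-Cytb. Of all 14729 genes tested, 4.09% were called in this comparison, 3.15% higher and 0.937% lower (limma, Benjamini-Hochberg adjusted p under 0.05). The median log2 change of the 13 mRNAs was -0.07, against -0.0052 over all genes tested.

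In wild-type cells, 3 of the 13 mRNAs fell and 0 rose, against 2.17% of all genes called, 1.7% higher and 0.468% lower. These were mt-Nd1, mt-Atp8 and mt-Cytb. The median log2 change of the 13 was -0.17, against -0.0025 over all genes tested. With copies summed the medians were -0.22 in Bmal1-/- cells and -0.10 in wild-type cells, so the genotype with the larger median fall changed. With copies summed, 6 of 13 fell in Bmal1-/- cells (0.944% of 14723 rows fell) and 5 of 13 in wild-type cells (0.475% of rows fell), the additions being mt-Atp6 and mt-Nd3 in both. The count in wild-type cells with copies summed was 2 without wild-type normoxia replicate 1 and 3 without replicate 2.

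Sums of markers of other cell types also differed with oxygen. The sum of 6 fibroblast markers was 2061 to 2352 in Bmal1-/- hypoxia against 1418 to 1708 in Bmal1-/- normoxia, and 3211 to 3706 in wild-type hypoxia against 2825 to 3321 in wild-type normoxia. Most of this sum was Col1a1, at 1381 to 1676 in Bmal1-/- hypoxia and 874.5 to 1159 in Bmal1-/- normoxia. Of the 6, Cd34 and Col1a1 were called in Bmal1-/- cells, both higher in hypoxia, where 3.15% of all genes rose. In wild-type cells 0 of the 6 were called. The sum of 6 smooth muscle and pericyte markers was 25985 to 26409 in Bmal1-/- hypoxia against 29381 to 29613 in Bmal1-/- normoxia. In wild-type cells it was 29912 to 31076 in hypoxia against 33844 to 35265 in normoxia. Most of this sum was Acta2, at 23912 to 24431 in Bmal1-/- hypoxia and 27297 to 27572 in Bmal1-/- normoxia. In wild-type cells Acta2 was 27105 to 28255 in hypoxia and 30716 to 32293 in normoxia. Acta2 was also the 1 of the 6 called with oxygen, lower in hypoxia in both genotypes. Groups overlapped for the fibroblast sum in wild-type cells, and not for that sum in Bmal1-/- cells or for the smooth muscle and pericyte sum. The myoblast sum was also lower in every wild-type hypoxia library, at 47980 to 51193 against 51640 to 51819 in wild-type normoxia. In Bmal1-/- cells the myoblast sum overlapped. The part of these markers in the hypoxia changes was not tested.

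mt-Atp8, a short membrane subunit of ATP synthase, changed most among the called mRNAs. Its coding sequence overlaps that of mt-Atp6, the proton channel subunit of the same enzyme, on a shared transcript. It is shown in full from chrM:7766-7969 on the plus strand, with the 43 bases shared with mt-Atp6 in capitals.
mt-Atp8: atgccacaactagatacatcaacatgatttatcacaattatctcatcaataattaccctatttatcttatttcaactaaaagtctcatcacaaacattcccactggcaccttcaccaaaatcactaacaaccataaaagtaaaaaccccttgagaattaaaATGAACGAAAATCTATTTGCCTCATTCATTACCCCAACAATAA
mt-Atp8 had 3484, 3171 and 3206 normalized counts in Bmal1-/- hypoxia, against 5328, 5257 and 4703 in Bmal1-/- normoxia. It had 3201, 2761 and 3283 in wild-type hypoxia, against 4614 and 4345 in wild-type normoxia. Every hypoxia library was below every normoxia library. The log2 change was -0.63 (SE 0.07, limma adjusted p = 7.94e-05) in Bmal1-/- cells and -0.54 (SE 0.08, adjusted p = 0.000975) in wild-type cells. Whether reads of mt-Atp8 also match the unannotated bases between Gm10925 and Gm28661 was not tested.

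The row of mt-Atp6 alone did not follow that of mt-Atp8. It had 2600, 2894 and 3648 in Bmal1-/- hypoxia against 3738, 2707 and 2923 in Bmal1-/- normoxia, which overlap. It had 2925, 3227 and 2882 in wild-type hypoxia against 2163 and 2109 in wild-type normoxia, higher in every hypoxia library. Its log2 change was -0.04 (adjusted p = 0.920) in Bmal1-/- cells and 0.49 (adjusted p = 0.0856) in wild-type cells.

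Summed with Gm10925, mt-Atp6 fell in both genotypes. It had 22954, 22169 and 21559 in Bmal1-/- hypoxia against 36779, 31724 and 30875 in Bmal1-/- normoxia. It had 23723, 21585 and 25545 in wild-type hypoxia against 30851 and 31036 in wild-type normoxia. The hypoxia libraries were all lower. The log2 change was -0.57 (SE 0.07, limma adjusted p = 0.000131) in Bmal1-/- cells and -0.39 (SE 0.07, adjusted p = 0.00969) in wild-type cells, so the direction in wild-type cells turned round when the copy was added. The wild-type change no longer passed when wild-type normoxia replicate 1 (adjusted p = 0.0742) or replicate 2 (adjusted p = 0.0943) was left out.

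The ratio of these neighbours within a library does not depend on scaling. The log2 ratio of mt-Atp8 to the mt-Atp6 row averaged 0.12 ± 0.30 in Bmal1-/- hypoxia and 0.72 ± 0.22 in Bmal1-/- normoxia (SD, n = 3 each), and 0.03 ± 0.22 in wild-type hypoxia (SD, n = 3) and 1.07 ± 0.04 in wild-type normoxia (SD, n = 2). The mean difference with hypoxia was -0.82 in an exact two-sided permutation test of 200 arrangements within genotype (p = 0.005, the smallest the design gives, adjusted p = 0.025 over 10 tests). Leaving out any 1 library left fewer arrangements, too few for their smallest p to pass after adjustment, so this cannot check the call. The difference then ranged from -0.89 to -0.74. Against mt-Atp6 summed with Gm10925 the difference was -0.10 (exact permutation p = 0.04, adjusted p = 0.12 over 6 tests). The difference in ratio with the copy counted did not pass the test after adjustment.

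mt-Nd1, a membrane subunit of complex I whose gene follows the rRNAs, fell to 0.741 of its normoxic level in Bmal1-/- cells and to 0.746 in wild-type cells. It had 33667, 34864 and 36708 in Bmal1-/- hypoxia, against 49857, 46236 and 45909 in Bmal1-/- normoxia. It had 28149, 30157 and 34473 in wild-type hypoxia, against 42707 and 39992 in wild-type normoxia. No hypoxia library reached a normoxia library of its genotype. The log2 change was -0.43 (SE 0.06, limma adjusted p = 0.00125) in Bmal1-/- cells and -0.42 (SE 0.07, adjusted p = 0.00441) in wild-type cells. Leaving out wild-type normoxia replicate 1 ended the wild-type call (adjusted p = 0.0750).

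mt-Nd2, a further membrane subunit of complex I, had 8963, 9212 and 9912 in Bmal1-/- hypoxia, against 12858, 11765 and 11880 in Bmal1-/- normoxia. It had 8035, 8065 and 10223 in wild-type hypoxia, against 11489 and 10520 in wild-type normoxia. Hypoxia libraries were lower throughout within a genotype. It fell in Bmal1-/- cells (log2 change -0.38, SE 0.08, limma adjusted p = 0.0149) and did not pass the test in wild-type cells (-0.33, SE 0.09, adjusted p = 0.0799). The Bmal1-/- call was lost without Bmal1-/- hypoxia replicate 1 (adjusted p = 0.0643), hypoxia replicate 2 (0.0571) or normoxia replicate 1 (0.0735). In wild-type cells mt-Nd2 passed with DESeq2 (adjusted p = 0.0107), with scaling to all rows (0.0399) and without wild-type hypoxia replicate 3 (0.00126).

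mt-Cytb, the cytochrome b of complex III, had 22595, 22965 and 23523 in Bmal1-/- hypoxia, against 29736, 26603 and 27108 in Bmal1-/- normoxia. It had 21211, 22046 and 24767 in wild-type hypoxia, against 28593 and 26709 in wild-type normoxia. The groups did not overlap in either genotype. It fell by 0.27 on the log2 scale in Bmal1-/- cells (SE 0.06, limma adjusted p = 0.0145) and by 0.29 in wild-type cells (SE 0.06, adjusted p = 0.0285). The Bmal1-/- call was lost without hypoxia replicate 1 or 2 or normoxia replicate 1 (adjusted p = 0.0533 to 0.0735). The wild-type call was lost without hypoxia replicate 1 or 2 or either normoxia replicate (adjusted p = 0.0770 to 0.227).

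mt-Nd3, a small subunit of complex I, passed the limma test over all libraries when the row of its copy was added and not alone. The row had 2265, 3037 and 4616 in Bmal1-/- hypoxia against 3252, 4150 and 2721 in Bmal1-/- normoxia, and 1720, 2131 and 2105 in wild-type hypoxia against 3439 and 3673 in wild-type normoxia. Neither change passed the test (log2 change -0.07, adjusted p = 0.904 in Bmal1-/- cells and -0.85, adjusted p = 0.0806 in wild-type cells). The wild-type change of the row alone passed without Bmal1-/- hypoxia replicate 1 (adjusted p = 0.0235) or replicate 3 (0.0127), libraries that enter it through the shared estimate of spread. Summed with Gm28438, mt-Nd3 had 5279, 5748 and 5840 in Bmal1-/- hypoxia against 8100, 8284 and 7122 in Bmal1-/- normoxia. It had 4475, 4556 and 4753 in wild-type hypoxia against 6479 and 6279 in wild-type normoxia. The summed groups did not overlap, and the log2 change was -0.48 (SE 0.06, limma adjusted p = 0.000178) in Bmal1-/- cells and -0.47 (SE 0.06, adjusted p = 0.000579) in wild-type cells.

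**Figure D3:**
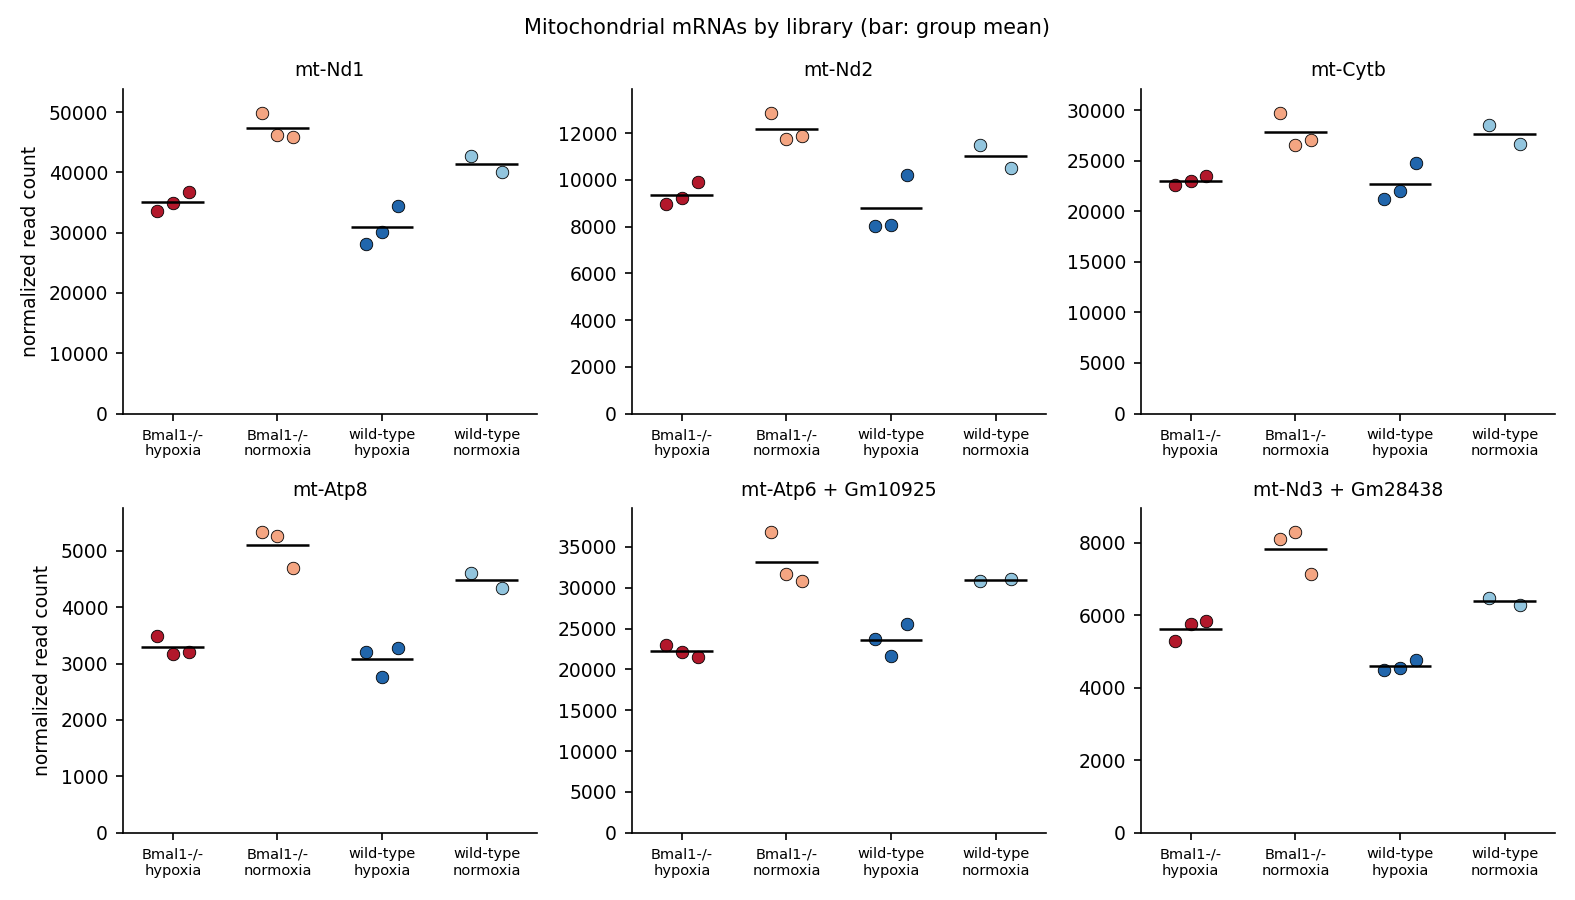
Normalized read counts (axis from 0) of mt-Nd1, mt-Nd2, mt-Cytb, mt-Atp8 and of mt-Atp6 and mt-Nd3 summed with their chromosome 1 copies. Points are libraries and bars are group means. In each panel the hypoxia libraries of a genotype lie below its normoxia libraries.

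The other mRNAs moved little or too unevenly to be called. mt-Co1, which made up 70.3 to 75.0% of reads on the mRNA rows, had 259490, 265151 and 271905 in Bmal1-/- hypoxia against 301703, 289330 and 277854 in Bmal1-/- normoxia. It had 257928, 254776 and 276735 in wild-type hypoxia against 293510 and 271936 in wild-type normoxia. The log2 change of -0.12 (95% interval -0.22 to -0.03, limma adjusted p = 0.169) in Bmal1-/- cells and -0.10 (-0.21 to 0.01, adjusted p = 0.400) in wild-type cells did not pass the test. The row of mt-Co2 alone had log2 changes of 0.32 (adjusted p = 0.676) in Bmal1-/- cells and -0.51 (adjusted p = 0.602) in wild-type cells, and that of mt-Co3, the third core subunit of complex IV, 0.28 (adjusted p = 0.828) and -0.17 (adjusted p = 0.932). With copies summed, mt-Co2 changed by -0.09 (adjusted p = 0.410) in Bmal1-/- cells and -0.03 (adjusted p = 0.868) in wild-type cells. The summed mt-Co3 changed by -0.12 (adjusted p = 0.226) and -0.09 (adjusted p = 0.501). The intervals of mt-Co2 and mt-Co3 with copies stayed between -0.23 and 0.09, and those of their rows alone reached from -1.34 to 1.33. Both were above 0 in Bmal1-/- cells for the rows alone and below 0 with copies.

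The remaining complex I subunits did not pass the test in either genotype. mt-Nd4 changed by -0.07 (95% interval -0.18 to 0.03) in Bmal1-/- cells and -0.04 (-0.16 to 0.07) in wild-type cells on the log2 scale. mt-Nd5 changed by -0.03 (-0.14 to 0.08) and -0.02 (-0.14 to 0.10). The row of mt-Nd4l alone changed by -0.95 (-2.02 to 0.12, adjusted p = 0.345) and 0.15 (-1.04 to 1.35, adjusted p = 0.940). mt-Nd4l with its copy Gm10222 changed by -0.22 (-0.40 to -0.04, adjusted p = 0.182) and 0.01 (-0.19 to 0.21). mt-Nd4l ends inside mt-Nd4, and its last 60 bases are shown from chrM:10114-10173 on the plus strand, with the 7 shared bases in capitals.
mt-Nd4l: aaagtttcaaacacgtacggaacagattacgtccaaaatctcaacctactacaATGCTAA
The log2 ratio of mt-Nd4l to mt-Nd4 differed with hypoxia by -0.88 in Bmal1-/- cells and 0.20 in wild-type cells for the row alone (mean -0.34, exact permutation p = 0.525), and by -0.15 in Bmal1-/- cells and 0.05 in wild-type cells with the copy (mean -0.05, exact permutation p = 0.34). The mean over genotypes passed the test in neither case, and the genotypes had opposite signs. Only mt-Nd4l was summed, since Gm28439, the copy of mt-Nd4, had no row among those analysed here. Of the 50-base stretches of mt-Nd4, 62.2% also occur in the transcript of another gene, so its values are uncertain too.

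mt-Nd6, a complex I subunit and the single mRNA encoded on the opposite strand, had 854.5, 930.0 and 993.1 in Bmal1-/- hypoxia against 938.3, 892.0 and 923.7 in Bmal1-/- normoxia. It had 965.5, 1055 and 1075 in wild-type hypoxia against 966.9 and 828.8 in wild-type normoxia. The groups overlapped in both genotypes, with log2 changes of 0.01 (95% interval -0.15 to 0.17, limma adjusted p = 0.968) and 0.20 (0.03 to 0.38, adjusted p = 0.282). Its log2 ratio to mt-Nd5, which it partly overlaps on the other strand, differed with hypoxia by 0.13 (exact permutation p = 0.075, adjusted p = 0.25 over 10 tests).

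No change of an rRNA with hypoxia passed the test. mt-Rnr2 had 5005180, 4920090 and 4797550 in Bmal1-/- hypoxia against 5085600, 5032330 and 4659050 in Bmal1-/- normoxia. It had 4731610, 4869840 and 4770860 in wild-type hypoxia against 4550740 and 4360030 in wild-type normoxia, so wild-type hypoxia libraries were all higher. The log2 change was -0.0044 (95% interval -0.11 to 0.10, limma adjusted p = 0.977) in Bmal1-/- cells and 0.10 (-0.01 to 0.22, adjusted p = 0.430) in wild-type cells. mt-Rnr1 changed by 0.11 (-0.03 to 0.25) and 0.05 (-0.10 to 0.21). The log2 ratio of mt-Rnr1 to mt-Rnr2 differed with hypoxia by 0.03 (exact permutation p = 0.675). Reads of rRNA rows per read of mRNA rows were 13.3 to 14.8 in hypoxia libraries and 11.7 to 12.9 in normoxia libraries, and with copies 8.97 to 9.98 in hypoxia libraries and 7.95 to 8.51 in normoxia libraries.

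**Figure D4:**
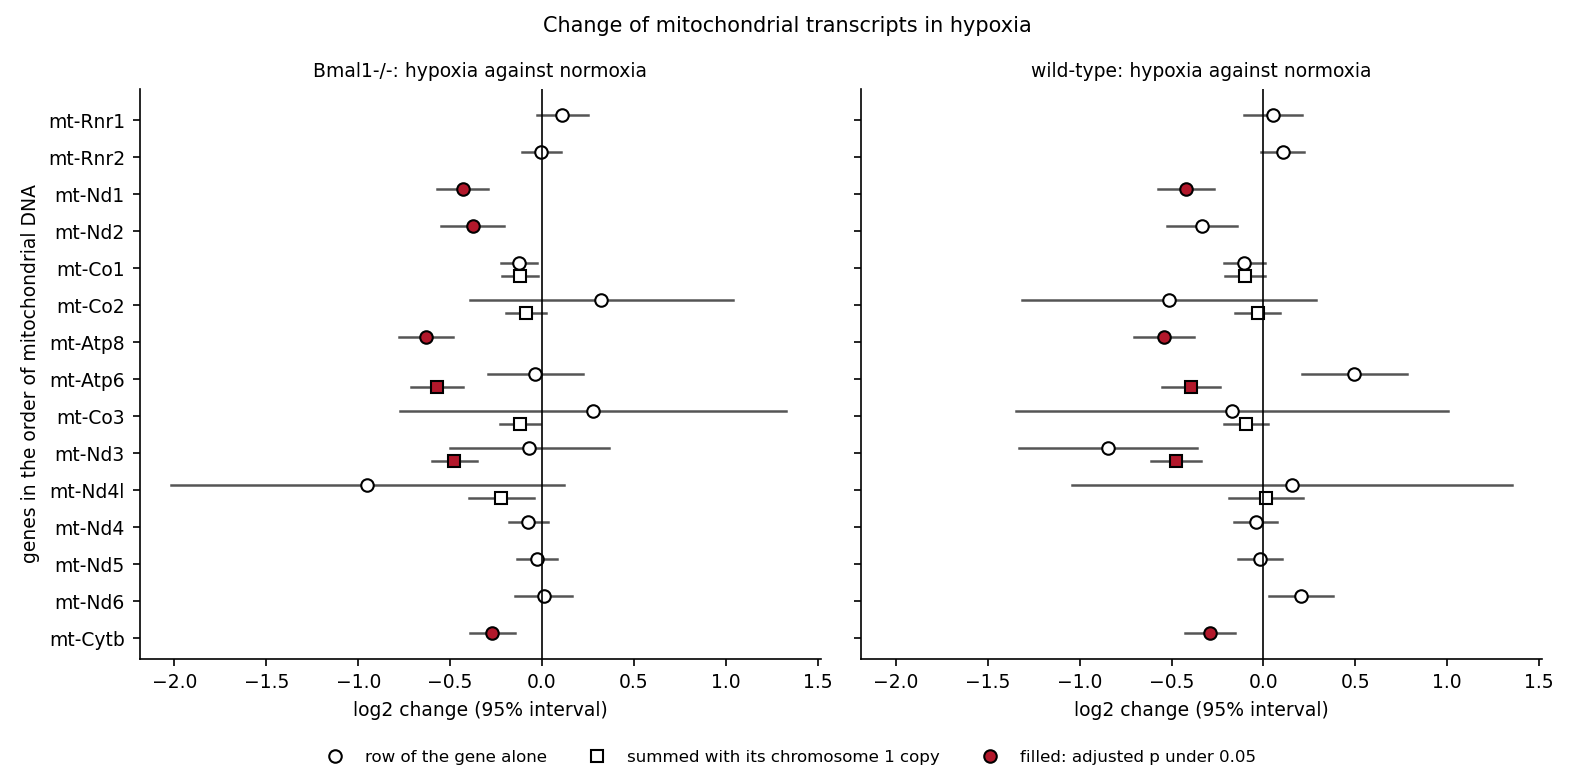
Log2 change in hypoxia with its 95% interval for the 15 rows of mitochondrial DNA, in the order of the genome, in Bmal1-/- cells (left) and wild-type cells (right). Circles are rows alone, squares are rows summed with their chromosome 1 copies, and filled symbols have an adjusted p under 0.05. Every filled symbol is below 0, and the intervals of mt-Co2, mt-Co3, mt-Nd3 and mt-Nd4l are much narrower with the copies.

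The hypoxia effects of the genotypes were then compared directly. The difference, Bmal1-/- minus wild-type, was called for 0 of the 16 rows, against 0.00679% of all genes, which was 1 gene by limma, with 784 genes at an unadjusted p under 0.05. For mt-Nd1 it was -0.01 (95% interval -0.21 to 0.20), for mt-Atp8 -0.09 (-0.31 to 0.13) and for mt-Nd3 summed with its copy -0.0033 (-0.19 to 0.18). For the rows alone, mt-Atp6 differed by -0.53 (unadjusted p = 0.0106, limma adjusted p = 0.905) and mt-Nd3 by 0.78 (unadjusted p = 0.0226, adjusted p = 0.905). With copies these differences were -0.18 for mt-Atp6 and -0.0033 for mt-Nd3.

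Bmal1-/- and wild-type cells were then compared at each oxygen level. In hypoxia, 0 of the 16 rows passed the limma test between Bmal1-/- and wild-type cells (1 by edgeR and 0 by DESeq2), while 8.95% of all genes were called, 3.33% higher and 5.61% lower. In normoxia, mt-Atp6 rose (log2 change 0.53, SE 0.13, limma adjusted p = 0.0223), 1 of 13 mRNAs, where 9.09% of all genes were called, 3.44% higher and 5.66% lower. In so few rows these counts are near the shares over all genes. Summed with Gm10925, mt-Atp6 differed by 0.09 (adjusted p = 0.484), and the call for the row alone was lost without Bmal1-/- normoxia replicate 1 (adjusted p = 0.0667), wild-type normoxia replicate 1 (0.0967) or replicate 2 (0.133).

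mt-Nd3 summed with Gm28438 was higher in Bmal1-/- cells at both oxygen levels. From the values given above, all Bmal1-/- libraries exceeded all wild-type libraries at the same oxygen level. The log2 change was 0.29 in hypoxia (SE 0.06, limma adjusted p = 0.00447) and 0.29 in normoxia (SE 0.06, adjusted p = 0.00964), the 1 mRNA called with copies summed in each comparison, where 3.35% and 3.45% of rows rose. Leaving out wild-type normoxia replicate 2 ended the normoxia call (adjusted p = 0.0908). The row of mt-Nd3 alone had log2 changes of 0.68 in hypoxia (adjusted p = 0.0517) and -0.10 in normoxia (adjusted p = 0.841), so the direction in normoxia turned round with the copy. The count in hypoxia with copies summed was 2 without Bmal1-/- normoxia replicate 3 and 4 without wild-type hypoxia replicate 3. In normoxia it was 2 and 3 without these libraries.

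Several others were higher in Bmal1-/- cells without passing the test. mt-Nd1 differed by 0.19 in hypoxia (limma adjusted p = 0.0943) and 0.19 in normoxia (adjusted p = 0.111). Without wild-type hypoxia replicate 3 both passed (adjusted p = 0.00729 in hypoxia and 0.0365 in normoxia). mt-Rnr2 differed by 0.14 in normoxia (adjusted p = 0.126), and this passed with edgeR (adjusted p = 0.0210), with DESeq2 (0.0196) and without Bmal1-/- normoxia replicate 3 (0.0461). The fibroblast and smooth muscle and pericyte sums were lower in all Bmal1-/- libraries than in any wild-type library at the same oxygen level. The myoblast sum was higher in all Bmal1-/- libraries. In hypoxia it was 54298 to 57088 in Bmal1-/- cells against 47980 to 51193 in wild-type cells. In normoxia it was 54003 to 57267 in Bmal1-/- cells against 51640 to 51819 in wild-type cells. Its members did not all go that way. Chrna1 was 22305 to 22798 in Bmal1-/- normoxia against 19250 to 20147 in wild-type normoxia. Myod1 was lower in every Bmal1-/- normoxia library, at 7983 to 8917 against 9124 to 9502. So was Cdh15, at 1831 to 2161 against 2170 to 2402, and Des overlapped. The part of these markers in the genotype values was not tested.

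Lars2 rose in hypoxia in both genotypes, with a far wider spread between libraries than the mitochondrial rRNAs. It encodes the mitochondrial leucyl-tRNA synthetase, the enzyme that loads leucine onto mitochondrial tRNA, and lies on chromosome 9 (GRCm38, chr9:123366927-123462666, plus strand). It had 110359, 50220 and 202508 in Bmal1-/- hypoxia against 34237, 36325 and 14328 in Bmal1-/- normoxia. It had 45348, 89528 and 117627 in wild-type hypoxia against 16474 and 11954 in wild-type normoxia. Hypoxia libraries were all higher within a genotype, and libraries of a group differed up to several fold.

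Lars2 rose by a log2 change of 1.99 (SE 0.46, limma adjusted p = 0.0271) in Bmal1-/- cells, where 3.15% of genes rose, and of 2.48 (SE 0.52, adjusted p = 0.0217) in wild-type cells, where 1.7% rose. The call in Bmal1-/- cells was lost without hypoxia replicate 1 (adjusted p = 0.0804), hypoxia replicate 3 (0.110) or normoxia replicate 3 (0.0842). The call in wild-type cells was lost without hypoxia replicate 2 or 3 or either normoxia replicate (adjusted p = 0.0714 to 0.205). Between genotypes the log2 change was 0.41 in hypoxia (95% interval -0.59 to 1.41) and 0.90 in normoxia (-0.22 to 2.01), neither of which passed the test.

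The row of Lars2 was 0.274 to 4.22% of that of mt-Rnr2 by read count, and the log2 ratio differed with hypoxia by 2.18 (exact permutation p = 0.005, the smallest the design gives, adjusted p = 0.025 over 10 tests). Leaving out any 1 library left fewer arrangements, too few for their smallest p to pass after adjustment, so this cannot check the call. The difference then ranged from 1.94 to 2.45. Over the 6 hypoxia libraries, where mt-Rnr2 spanned 4731610 to 5005180 and so varied too little to show a relation or its absence, the log2 values had a Pearson r of 0.03 (exact permutation p = 0.957) and a Spearman rho of 0.09 (p = 0.919). Without the 2 libraries farthest from the median of mt-Rnr2, r was -0.84. Of 14728 other tested genes ranked by their Pearson correlation with Lars2 over all 11 libraries, mt-Rnr2 came at 1298 (r = 0.54), Gm26917, an rRNA-like row, at 2805 (r = 0.36) and mt-Rnr1 at 3125 (r = 0.32).

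The gene most like Lars2 by that ranking was Gm42418 on chromosome 17 (r = 0.95), a row known to collect reads of cytosolic rRNA in mouse libraries. Next came Hoxa11 (r = 0.93), a homeobox transcription factor, Msl3l2 (r = 0.93), Bbx (r = 0.92), an HMG box protein, and Nt5dc3 (r = 0.92). These correlations describe libraries that also share depth and oxygen level. Gm42418 had 165540, 74411 and 316450 in Bmal1-/- hypoxia against 125857, 47774 and 21307 in Bmal1-/- normoxia. It had 58098, 129075 and 163348 in wild-type hypoxia against 20501 and 15636 in wild-type normoxia. By limma its log2 change in hypoxia was 1.64 (SE 0.58, adjusted p = 0.155) in Bmal1-/- cells and 2.58 (SE 0.65, adjusted p = 0.0625) in wild-type cells, neither of which passed. Its high and low libraries were those of Lars2 within each group except Bmal1-/- normoxia.

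Within the 6 hypoxia libraries, where oxygen did not differ, Lars2 and Gm42418 had r = 0.996 (exact permutation p = 0.00278, adjusted p = 0.00625 over 3 rows) and rho = 0.94 (p = 0.0167, adjusted p = 0.025). Without the 2 libraries farthest from the median of Gm42418, r was 0.997. Gm26917, a neighbouring row on chromosome 17 of the same kind, gave r = 0.91 (exact permutation p = 0.00417, adjusted p = 0.00625) and rho = 0.94, and r = 0.94 without the 2 farthest libraries. Gm42418 came first in a ranking that includes these libraries, so its correlation here is not independent of that choice. In hypoxia Gm26917 changed by 0.40 on the log2 scale in Bmal1-/- cells (limma adjusted p = 0.0133) and by -0.07 in wild-type cells (adjusted p = 0.826), while Lars2 rose in both. The ratio of Lars2 to Gm42418 was 0.640 to 0.804 in 10 libraries and 0.272 in Bmal1-/- normoxia replicate 1. The log2 ratio of Lars2 to Gm42418 differed with hypoxia by 0.35 in Bmal1-/- cells, where normoxia replicate 1 stood apart, and by -0.10 in wild-type cells. The mean was 0.12 (exact permutation p = 0.965, adjusted p = 0.965 over 6 tests). Since Gm42418 was picked for its likeness, this ratio is read as a description and nothing is drawn from the test. This ratio was added after the data were seen.

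**Figure D5:**
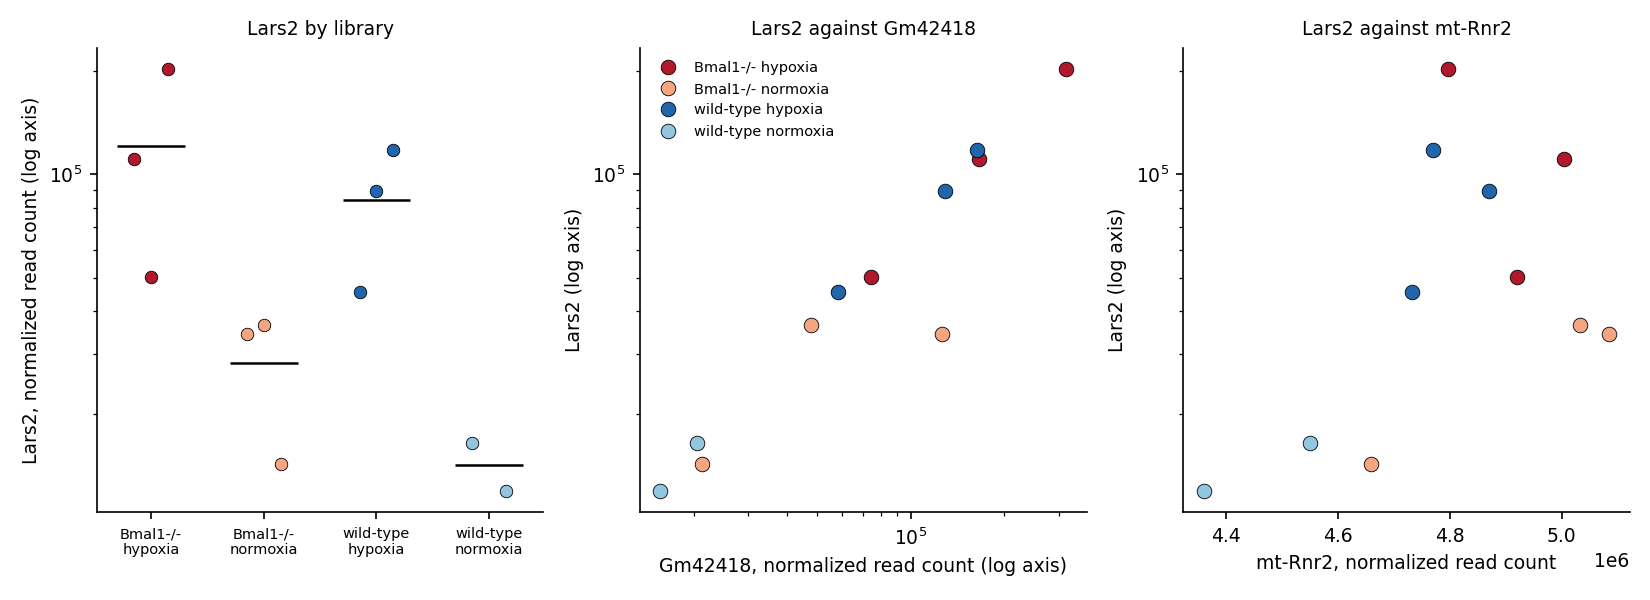
Lars2 normalized read count by group (left, log axis, bars are group means), against Gm42418 (middle, both axes log) and against mt-Rnr2 (right, log vertical axis, linear horizontal axis). Each point is a library. Lars2 and Gm42418 are high and low together apart from Bmal1-/- normoxia replicate 1, and Lars2 spans 11954 to 202508 while mt-Rnr2 spans 4360030 to 5085600.

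Sequence was compared to see what Lars2 shares with these rows. None of 9 annotated Lars2 transcripts aligned to a transcript of mitochondrial DNA over 50 bases or more at 85% identity or more. The longest exact run shared with Lars2 was 12 bases in mt-Rnr2, 14 in mt-Rnr1, 12 in Gm42418 and 12 in Gm26917. AA474408 on chromosome 7, with 42.2 to 64.5 normalized counts, shared an exact run of 41 bases. It is not on the list of rRNA-like rows and was added to this comparison. A run of 52 bases was shared with Gm15564 on chromosome 16, a further row counted among the rRNA-like ones, within a 72-base alignment of 98.6% identity. It lies at bases 3278 to 3329 of the Lars2 transcript, in the 3′ untranslated region (bases 2909 to 3894). Its first 30 bases are shown in lower case from chr9:123462048-123462077 on the plus strand.
Lars2 and Gm15564: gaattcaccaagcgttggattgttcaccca
Gm15564 itself read 0 to 17.4 and was not tested. Where in Lars2 its reads fell is not given by these values, and the part of rRNA reads in the Lars2 change was not tested.

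Of the nuclear genes that make, cut and translate mitochondrial RNA, few were called in hypoxia, where 4.09% of all genes were called in Bmal1-/- cells and 2.17% in wild-type cells. With so few genes a list, counts near 0 are close to those shares. Of 10 tested genes of mitochondrial transcription, among them the polymerase Polrmt and the packaging factor Tfam, 0 passed in either genotype, with median log2 changes of -0.11 in Bmal1-/- cells and -0.07 in wild-type cells. The same count was 0 of 17 for replication of mitochondrial DNA, 0 of 23 for RNA processing and decay and 0 of 9 for regulators of mitochondrial biogenesis. Of 25 RNA modification genes, Osgepl1, which helps to form a modified adenosine of tRNA, rose (0.34, limma adjusted p = 0.0437) and Nsun3, a tRNA methyltransferase, fell (-0.63, adjusted p = 0.0358) in Bmal1-/- cells, and 0 passed in wild-type cells.

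The lists of translation genes are read against the same shares of 4.09% and 2.17% called. Of 21 other genes for loading mitochondrial tRNAs, 0 passed in hypoxia in either genotype, with median log2 changes of 0.02 in Bmal1-/- cells and 0.0032 in wild-type cells, beside 1.99 and 2.48 for Lars2. Of 14 tested translation factors, the GTPase Guf1 fell in Bmal1-/- cells (-0.23, limma adjusted p = 0.0217). Of 77 mitochondrial ribosomal proteins, Mrps5 (-0.30, adjusted p = 0.0245) and Mrpl47 (-0.28, adjusted p = 0.0371) fell in Bmal1-/- cells and Mrpl45 rose in wild-type cells (0.30, adjusted p = 0.00799).

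Between genotypes, 1 gene of these lists passed in normoxia, where 9.09% of all genes were called, and 1 in hypoxia, where 8.95% were called. Tfam had 1115, 979.5 and 997.5 in Bmal1-/- normoxia against 890.9 and 680.4 in wild-type normoxia, with every Bmal1-/- library higher, and rose by a log2 change of 0.40 (SE 0.11, limma adjusted p = 0.0310). In hypoxia it had 920.4, 850.1 and 1047 in Bmal1-/- cells against 936.9, 934.1 and 942.9 in wild-type cells, which overlap. Ears2, the mitochondrial glutamyl-tRNA synthetase, rose in Bmal1-/- cells in hypoxia (0.32, SE 0.07, adjusted p = 0.0122).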

How the data were processed

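Total RNA libraries were made with a stranded kit, per the labels' protocols. The deposited values are a signal, read counts that the authors divided by 1 size factor per library, for 22104 genes in 11 libraries, with 0 columns unused. Tools listed in the submitters' processing notes are STAR, HTSeq, RSEM, DESeq2, Picard and bcl2fastq, with mm10 as the build, and their versions and roles are not given in the sources used here, nor is whether counting used strand. Undoing that division returned whole reads, to within 0.01 read, in 100% of cases, 18707697 to 33613328 per library. Within groups, chi-square per degree of freedom between pairs of libraries was 4.59 to 22.6, so none was a duplicate. A symbol was found for 21805 genes.

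Genes that reached a value of 10 in 2 or more libraries (14729, all 16 described rows among them) were tested on log2(value + 1), a scale that understates changes of low genes. The test was limma 3.58.1 with a trend, in R 4.3.3, with 4 group means (residual degrees of freedom 7, prior 6.35), two-sided, with Benjamini-Hochberg adjustment over all genes and a call at an adjusted p under 0.05. The values are not raw counts, so edgeR 4.0.16 (quasi-likelihood, TMM) and DESeq2 1.42.0 on recovered reads were alternatives. By edgeR 441 genes rose and 130 fell in hypoxia in Bmal1-/- cells, and 243 rose and 75 fell in wild-type cells. Ratios within a library were compared by exact permutation tests in scipy 1.17.1. Other alternatives were a pseudocount of 0.5, no filter, rescaling to all rows or to rows not described here, and leaving out each library. Those added after the data were seen are the sums with near-identical copies and the ratios that use copies or Gm42418.

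Sequences and positions are from GENCODE M21 (GRCm38), and copies were found with blastn 2.17.0. Rows and gene lists were chosen with earlier results of these data known. All 16 rows were named, as were the 5 genes most correlated with Lars2, rRNA-like rows and up to 3 called genes of each list. The fit and the permutation test were tested on simulated data. Genes that overlap or share sequence, named above, are uncertain. At these depths the spread between libraries, not counting error, limited precision.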

Additional observations from a re-analysis of the deposited data

How the results depend on the processing

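Of 1440 values of the 16 rows under 18 alternative settings and 5 comparisons, 1395 kept their side of the threshold. Another 22 lost a call, 21 gained one and 2 turned direction with a call in 1 of the settings compared. Changes of sign where neither value was called count among the 1395. The 2 that turned did so when copies were summed: mt-Atp6 in wild-type hypoxia (log2 change -0.39) and mt-Nd3 in the normoxia genotype comparison (0.29). With copies summed, 5 rows fell in wild-type hypoxia and 1 row rose in Bmal1-/- cells in hypoxia. By edgeR 1 row rose in Bmal1-/- cells in hypoxia and 2 in normoxia. By DESeq2 2 of the 16 rows rose in normoxia, mt-Rnr2 among them. With copies summed, DESeq2 called 2 of the 13 mRNAs there, a count that leaves out the rRNAs. Shares over all genes under each alternative are not given here. In the main fit 3.33% of all genes rose in Bmal1-/- cells in hypoxia and 3.44% in normoxia. With hypoxia 3.15% rose and 0.937% fell in Bmal1-/- cells, and 1.7% rose and 0.468% fell in wild-type cells. Leaving out each library gave 0 to 1 risen and 2 to 4 fallen rows in Bmal1-/- hypoxia, 0 to 2 risen and 1 to 4 fallen in wild-type hypoxia, and 0 to 2 risen in Bmal1-/- cells in either oxygen level. With copies summed it gave 2 to 6 fallen mRNAs in wild-type hypoxia, and in Bmal1-/- cells 1 to 4 risen in hypoxia and 0 to 3 in normoxia. The log2 change of Lars2 ranged from 1.51 to 2.52 in Bmal1-/- cells and from 2.18 to 2.87 in wild-type cells. The hypoxia difference in log2 ratio ranged from -0.89 to -0.74 for mt-Atp8 to mt-Atp6 and from 1.94 to 2.45 for Lars2 to mt-Rnr2. Neither call could be met with a library left out, since the fewer arrangements gave no adjusted p under 0.05. Their loss therefore does not bear on any 1 library. With 1 wild-type normoxia library left out, the remaining library was assumed to vary like the other groups. No paired analysis was possible because the labels give no replicate numbers. Every hypoxia library was deeper than every normoxia library, so depth and oxygen cannot be told apart.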

Other observations

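Rows that collect reads of satellite repeats showed a library apart from its group. Gm10800 had 0, 31.8 and 208 in Bmal1-/- hypoxia against 37.2, 57.5 and 30.4 in Bmal1-/- normoxia, and 2.86, 4.92 and 70.7 in wild-type hypoxia against 24.6 and 35.4 in wild-type normoxia. Gm26870 had 0, 17.3 and 68.7 in Bmal1-/- hypoxia against 6.21, 21.2 and 15.2 in Bmal1-/- normoxia, and 1.91, 3.51 and 14.0 in wild-type hypoxia against 13.9 and 14.8 in wild-type normoxia. In both rows Bmal1-/- hypoxia replicate 3 was highest of all libraries, as it was for Lars2, and Bmal1-/- hypoxia replicate 1 was listed at 0. Gm37357, Gm10801 and Gm21738 were below 10 in every library. Over the 11 libraries the correlation with Lars2 was -0.05 for Gm10800 and -0.08 for Gm26870. Gm26917 was lower in Bmal1-/- than in wild-type cells in normoxia (log2 change -0.37, limma adjusted p = 0.0215).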
